A study of Mus musculus with 10 samples.

Results

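Of the 24386 genes with nascent RNA counts in this time course of X chromosome inactivation, 5 are the X-linked translation genes Rpl10, Rps4x, Rpl36a, Rpl39 and Eif1ax, taken by gene name from the 1028 X-linked genes. All 5 were measured in all 10 samples. Cells of the TX1072 line, female mouse embryonic stem cells with a Cast (Mus musculus castaneus) and a C57BL/6 (B6) genome, were given doxycycline (DOX, 1 µg/ml) for 0, 4, 8, 12 or 24 h, with 2 replicates at each time. All groups, 0 h included, share the wild-type genotype, the medium with serum, LIF and 2 kinase inhibitors, and an inducible promoter in front of the endogenous Xist gene on the B6 chromosome, so that DOX turns on Xist from the B6 X (the future inactive X, Xi) and not from the Cast X. RNA was labelled with 0.5 mM 4-thiouridine for 5 min before lysis and the labelled RNA was sequenced (TT-seq). The counts are thus meant to follow transcription in the last minutes rather than the standing mRNA pool. Carry-over of unlabelled RNA was not measured here.

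The design has limits that touch each result. The data come from a single cell line, no sample received DOX without Xist induction, and cells were harvested at successive times after plating, so for total counts the effects of DOX, of Xist and of culture time cannot be told apart. In bulk RNA, fewer transcribing cells and less RNA per cell cannot be told apart either. The study calls its silencing data an average of biological duplicates. The labels only number the replicates, and what separated them (cultures or later steps) is not given there, so p-values measure the spread between these samples.

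Ribosomes are built from ribosomal RNA and a fixed set of ribosomal proteins, most of them made from autosomal genes that are transcribed at very high rates in dividing cells. Rpl10 encodes a large-subunit protein that is added last and is needed for the subunits to join, Rpl36a and Rpl39 encode small proteins of the large subunit, and Rps4x encodes a protein of the small subunit. Eif1ax encodes the initiation factor eIF1A, which helps the small subunit to scan the mRNA for its start codon. In X inactivation Xist RNA coats 1 chromosome and genes along it lose transcription at different speeds and to different extents. Genes of the translation machinery commonly start their transcripts in a run of pyrimidines (C and T), the element through which their mRNAs are regulated by growth signals.

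Sequence near the annotated starts of the 5 genes is shown for its pyrimidine runs. Each line holds 30 bases of the coding strand, 5′ to 3′, from RefSeq (GRCm38.p6), and the capitals mark the longest unbroken run of C and T found by script from 40 bases before to 50 bases after the RefSeq start site.
Rpl10: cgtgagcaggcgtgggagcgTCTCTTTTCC
Rps4x: gcgcgcgcagcctccgaccctaaTTTCTTC
Rpl36a: ttccgttgcggctctagCCTCTCTCTTTCC
Rpl39: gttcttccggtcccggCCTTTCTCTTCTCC
Eif1ax: gggaggaggaggagggcggggagaagCCCC
The lines lie at chrX:74270836-74270865 (+ strand) for Rpl10, chrX:102189345-102189374 (− strand) for Rps4x, chrX:134585664-134585693 (+ strand) for Rpl36a, chrX:37085173-37085202 (− strand) for Rpl39 and chrX:159372161-159372190 (+ strand) for Eif1ax.

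The run was 14 bases in Rpl39, 13 in Rpl36a, 10 in Rpl10, 7 in Rps4x and 4 in Eif1ax. Among 32851 promoters searched in the same window, 4.35% held a run as long as that of Rpl39, 5.87% as long as that of Rpl36a and 16.0% as long as that of Rpl10. Runs as long as those of Rps4x and Eif1ax were common, at 46.4% and 95.7% of promoters. A run of 9 or more stood in 22.6% of all promoters and in 73.2% of the 71 autosomal ribosomal protein promoters found. Every run lies downstream of the RefSeq start site, at bases 41 to 50 for Rpl10, 41 to 47 for Rps4x, 28 to 40 for Rpl36a, 37 to 50 for Rpl39 and 10 to 13 for Eif1ax (the start site is base 1), so the capitals are not shown to be the element in which transcripts start. The runs of Rpl10 and Rpl39 reach the edge of the window and may be longer. The window of Eif1ax had a GC content of 78.9%, and those of the other 4 genes had 54.4% to 66.7%. These letters describe the sequence only, and no binding or start site was measured.

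The genes are spread along the X chromosome (mm10). Rpl39 lies at chrX:37082518-37085222 on the − strand, Rpl10 at chrX:74270816-74273135 on the + strand and Rps4x at chrX:102184941-102189391 on the − strand. Rpl36a lies at chrX:134585654-134588062 and Eif1ax at chrX:159372195-159385699, both on the + strand. Rps4x is the nearest to Xist, at 1.27 Mb, and the others are 29.2 Mb (Rpl10), 31.1 Mb (Rpl36a), 55.9 Mb (Eif1ax) and 66.4 Mb (Rpl39) away. All are annotated as protein coding, and exons cover 38.8% of the counted span of Rpl10, 21.8% of Rps4x, 20.0% of Rpl36a, 16.0% of Rpl39 and 6.86% of Eif1ax, so that the counts come from introns and exons together. Snora70 lies inside Rpl10 and Snora69 inside Rpl39, and both small nucleolar RNAs were listed at 0 counts in every sample. Whether they were transcribed was not tested.

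Sequencing depth was even, with total counts of 18809046 to 22274929 per sample. An allele could be assigned to 49.2% of the counts of 0 h replicate 1 and to 51.7% to 52.8% elsewhere. Xist had 32 and 31 counts in the 0 h replicates and 6348 to 14211 with DOX. Of 7 embryonic stem cell markers, 6 had counts in every sample. Sox2 was listed at 0 in every sample, and whether it was transcribed was not tested. The summed level of the list ran from 2589 to 2933 CPM (counts scaled to the TMM-adjusted library size). The summed markers of fibroblasts (2.97 to 5.95 CPM over 5 genes), endoderm (1.78 to 2.82 CPM over 4 genes) and mesoderm (6.58 to 9.97 CPM over 3 genes) stayed low. Markers of the primed state summed to 118.0 to 153.8 CPM over 4 genes, most of it from Dnmt3b. Of the 5 fibroblast markers, Col1a2 had 28 to 71 counts per sample, Thy1 17 to 34, Col1a1 8 to 23, Dcn 0 to 2 and Col3a1 0 to 1.

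With Xist left out, the 4 ribosomal protein genes had the highest counts per length of the X chromosome. At 0 h, in CPM per kb of gene, Rpl10 stood at 80.5 ± 14.1 (SD, n = 2), Rps4x at 70.5 ± 10.7, Rpl36a at 65.7 ± 9.86 and Rpl39 at 59.6 ± 9.02. Over all samples they ranked 1, 2, 3 and 4 of 1027 X-linked genes. Eif1ax stood at 6.10 ± 0.921 CPM per kb and ranked 55. Neighbours in the order of the 4 ribosomal protein genes were closer together than the spread between the 0 h replicates, although Rpl10 was highest in 10 of 10 samples and the same full order held in 8 of 10. Eif1ax was the lowest in 10 of 10.

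The first comparison asked whether total transcription of the 5 genes changed during DOX treatment. Rpl10 stood at 209.9 and 163.8 CPM in the 0 h replicates, 183.9 and 166.9 at 4 h, 145.4 and 185.3 at 8 h, 162.5 and 140.7 at 12 h and then 165.0 and 129.8 at 24 h (replicate 1 first). The 24 h values overlapped those at 0 h, since 24 h replicate 1 lay just above 0 h replicate 2. Rps4x stood at 347.5 and 280.4 CPM at 0 h, 295.0 and 269.3 at 4 h, 246.3 and 268.0 at 8 h, 254.8 and 216.8 at 12 h and then 284.3 and 213.4 at 24 h. Its 8 h and 12 h values lay below both 0 h values, and 24 h replicate 1 returned into their range.

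Rpl36a stood at 175.2 and 141.6 CPM at 0 h, 152.8 and 138.2 at 4 h, 120.1 and 126.8 at 8 h, 120.2 and 117.8 at 12 h and then 131.1 and 105.2 at 24 h. From 8 h on, every value lay below both 0 h values. Rpl39 stood at 178.4 and 143.8 CPM at 0 h, 165.0 and 139.8 at 4 h, 125.5 and 153.6 at 8 h, 125.7 and 126.5 at 12 h and then 131.0 and 115.9 at 24 h. Its 12 h and 24 h values lay below the 0 h values, with overlap at 8 h through replicate 2.

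Eif1ax stood at 73.6 and 91.2 CPM at 0 h, 74.2 and 80.7 at 4 h, 65.4 and 82.4 at 8 h, 59.9 and 72.0 at 12 h and then 68.0 and 66.7 at 24 h. Here replicate 2 was the higher of the 0 h pair, whereas replicate 1 was the higher for all 4 ribosomal protein genes. The 12 h and 24 h values of Eif1ax did not overlap those at 0 h.

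**Figure D1:**
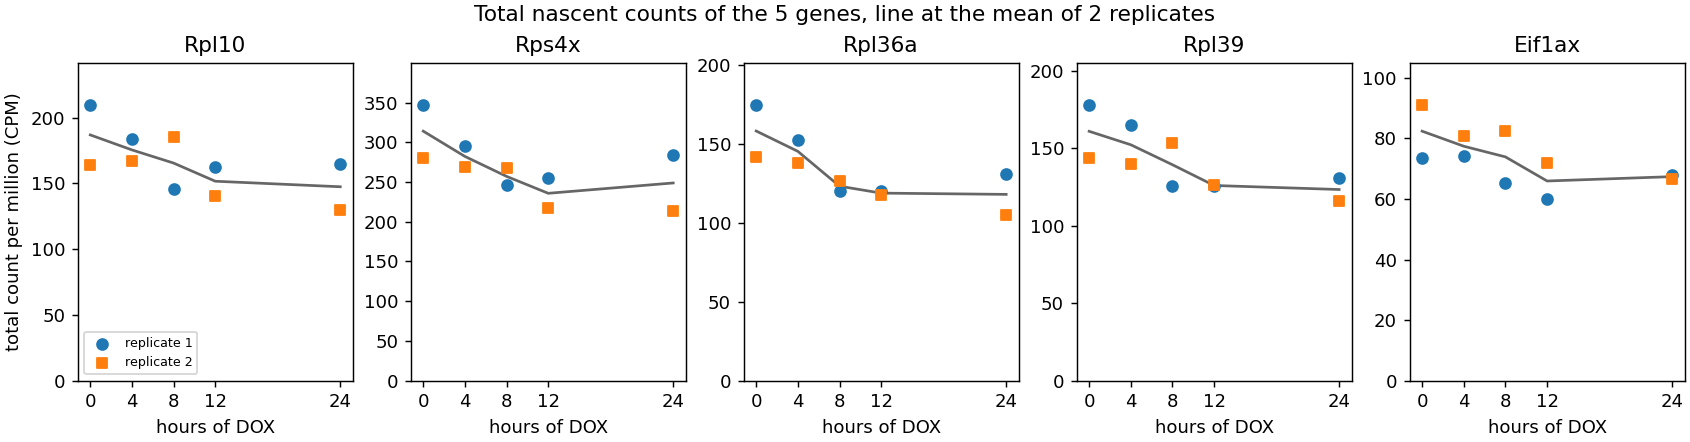
Total nascent counts of Rpl10, Rps4x, Rpl36a, Rpl39 and Eif1ax in TMM-scaled CPM (vertical axis, from 0, with its own scale for each gene) against hours of DOX, with 1 point per sample and a line through the mean of the 2 replicates. The mean of Rpl36a went from 158.4 CPM at 0 h to 118.2 CPM at 24 h, and the replicates of Rpl10 and Rps4x at 24 h straddle the lower 0 h value.

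At 24 h the fitted log2 changes in total counts were −0.34 ± 0.137 (SE) for Rpl10, −0.34 ± 0.126 for Rps4x, −0.42 ± 0.109 for Rpl36a, −0.38 ± 0.116 for Rpl39 and −0.29 ± 0.121 for Eif1ax, or percent changes of −18.2% to −25.4%. None of the 5 passed the edgeR test at any time, with the smallest adjusted p, 0.0685, for Rpl36a at 24 h. At an unadjusted p under 0.05, edgeR gave 0 of the 5 at 4 h, 2 at 8 h (Rpl36a and Rps4x), 5 at 12 h and 5 at 24 h. DESeq2 called Rpl36a alone at 12 h and 24 h, beside 134 and 201 X-linked genes. The limma-voom fit called 0 at each time, beside 0, 28, 113 and 189 X-linked genes at 4, 8, 12 and 24 h. Of 502 X-linked genes tested by edgeR, 0% were called lower at 4 h (34 had an unadjusted p under 0.05 and DESeq2 called 1), 5.38% at 8 h, 22.5% at 12 h and 38% at 24 h. As a median over the X-linked genes, the log2 change was −0.08, −0.27, −0.41 and −0.50 at these times, and that of the 5 genes was −0.09, −0.21, −0.35 and −0.34.

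Same-numbered samples deviated together weakly in total counts (r of 0.142 to 0.281 across genes), and the fit with the replicate number as a block changed these calls. The labels give no pairing. For the 4 ribosomal protein genes replicate 1 was the higher at 0 h and replicate 2 at 8 h, so the numbers did not pair these genes throughout. With the replicate block, edgeR called 0, 1, 4 and 5 of the 5 genes lower at 4, 8, 12 and 24 h, beside 0.199%, 20.7%, 55.4% and 61.4% of the X-linked genes. The blocked adjusted p at 24 h was 0.000207 for Rpl36a, 0.00317 for Rpl39, 0.00478 for Rps4x, 0.0195 for Rpl10 and 0.0214 for Eif1ax. Within each replicate number, the log2 change of Rpl10 from 0 h up to 24 h was −0.35 and −0.34, and that of Rpl36a was −0.42 and −0.43. At 8 h the pairs differed more, with −0.53 and 0.18 for Rpl10 and −0.51 and 0.09 for Rpl39. Leaving out 0 h replicate 2 raised the calls without the block to 3 at 12 h and 2 at 24 h, and leaving out 24 h replicate 1 raised those at 24 h to 1. Leaving out 0 h replicate 1 or 24 h replicate 2 made the changes of the 4 ribosomal protein genes smaller, and none was then called. Without 0 h replicate 1 the 24 h log2 change was −0.15 for Rpl10, −0.17 for Rps4x, −0.26 for Rpl36a and −0.22 for Rpl39, and without 24 h replicate 2 it was −0.18, −0.15, −0.28 and −0.30 for the same genes. Eif1ax moved the other way at 0 h, to −0.43 without replicate 1 and −0.14 without replicate 2.

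The autosomal ribosomal protein genes also differed between replicates. The 80 autosomal ribosomal protein genes summed to 11582 CPM in 0 h replicate 1 and 9901.8 CPM in 0 h replicate 2, to 9341.6 and 10682 CPM at 8 h, and to 11058 and 9523.4 CPM at 24 h. The same libraries were the high ones for Rpl10, Rps4x, Rpl36a and Rpl39 at these times. At 4 h and 12 h the autosomal sums were 10208 and 9825.2 CPM and 9585.5 and 9306.8 CPM, and replicate 1 was likewise the higher for the 4 genes, except that Rpl39 stood at 125.7 and 126.5 CPM at 12 h. In edgeR 0 of the 74 autosomal ribosomal protein genes tested were called at any time, as in DESeq2 and limma-voom. At an unadjusted p under 0.05 there were 1, 3, 24 and 0 lower at 4, 8, 12 and 24 h, beside 174, 411, 886 and 827 of all 14525 genes. The replicate block gave 4 at 12 h, beside 434 of all genes. The fitted log2 change was below 0 in 71, 72, 74 and 59 of the 74 genes at these times, so the class as a whole stood lower at 12 h. Their median log2 change was −0.11, −0.11, −0.19 and −0.08 at 4, 8, 12 and 24 h. The part of the shared spread in the total counts of the X-linked genes was not tested.

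Set against that class within each sample, the 4 X-linked ribosomal protein genes followed a narrower course. This ratio was computed after the values per sample had been seen, and it carries no test. Their summed CPM was 7.87% and 7.37% of the autosomal sum at 0 h, 7.80% and 7.27% at 4 h, 6.82% and 6.87% at 8 h, 6.92% and 6.47% at 12 h and then 6.43% and 5.93% at 24 h. Every value from 8 h on lay below all 4 values of 0 h and 4 h. The mean was 7.62% ± 0.352 (SD, n = 2) at 0 h and 6.18% ± 0.359 at 24 h. Each of the 4 genes had both 24 h values below both 0 h values on this scale, among them Rpl10, at 1.73% ± 0.11 and 1.43% ± 0.091, and Rps4x, at 2.92% ± 0.12 and 2.41% ± 0.23, whose 24 h and 0 h values overlapped in CPM.

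**Figure D2:**
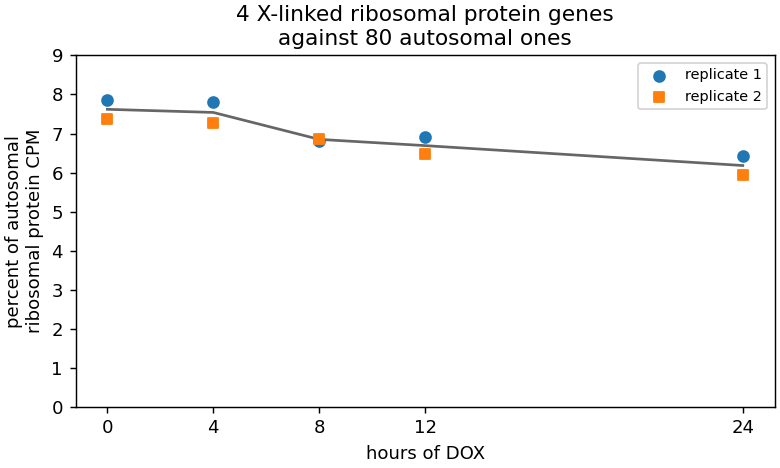
Summed CPM of Rpl10, Rps4x, Rpl36a and Rpl39 as a percent of the summed CPM of 80 autosomal ribosomal protein genes (vertical axis, from 0) against hours of DOX, with 1 point per sample and a line through the mean of the 2 replicates. The samples at 0 h and 4 h sit between 7.27% and 7.87%, and those from 8 h on between 5.93% and 6.92%.

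The second comparison asked how much of the transcription came from the B6 allele, read from the d-score, the B6 share of the allelic counts of a gene. Only 3 of the 5 genes could be followed in this way. Rpl36a and Rpl39 had no allelic count in any sample, out of 27392 and 28950 total counts, as had 12 of the 502 X-linked genes tested for total counts, and their fall or lack of fall on the Xi is not detectable in these data. Allelic counts made up 45.4% of the total for Rps4x and 50.9% for Eif1ax, near the X-linked median of 43.4%, but 15.6% for Rpl10. They numbered 2111 to 3089 per sample for Rps4x, 602 to 1046 for Eif1ax and 410 to 731 for Rpl10. The allelic counts of Rpl10 did not follow its total. They were 604 of 4538 counts in 0 h replicate 1 and 731 of 3579 in 0 h replicate 2. In 8 h replicate 2 they were 423 of 3623, and in 24 h replicate 2 they were 582 of 2894. Intervals given for d-scores are 95% Wilson intervals and cover counting error only, as the libraries carried no molecular identifiers to tell molecules from copies.

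Rpl10 had d-scores of 0.561 and 0.544 at 0 h, 0.502 and 0.515 at 4 h, 0.475 and 0.473 at 8 h, 0.422 and 0.429 at 12 h and then 0.429 and 0.445 at 24 h. Both 0 h values lay above all later ones, and the values at 24 h did not lie below those at 12 h. The interval was 0.508 to 0.58 in 0 h replicate 2 and 0.405 to 0.486 in 24 h replicate 2. Rps4x had d-scores of 0.512 and 0.520 at 0 h, 0.479 and 0.491 at 4 h, 0.436 and 0.451 at 8 h, 0.419 and 0.433 at 12 h and then 0.371 and 0.382 at 24 h. For Rps4x both replicates of each time lay below both of the time before it.

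Eif1ax had d-scores of 0.476 and 0.405 at 0 h, 0.436 and 0.409 at 4 h, 0.296 and 0.321 at 8 h, 0.299 and 0.273 at 12 h and then 0.264 and 0.276 at 24 h. The values fell into an upper set at 0 h and 4 h and a lower set from 8 h on, with no overlap between the sets. Its 0 h replicates were the farthest apart of the 3 genes, with intervals of 0.441 to 0.512 and 0.376 to 0.435 that do not meet. Eif1ax also began below an even share in 0 h replicate 2, whereas both 0 h intervals of Rpl10 lay above 0.5.

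**Figure D3:**
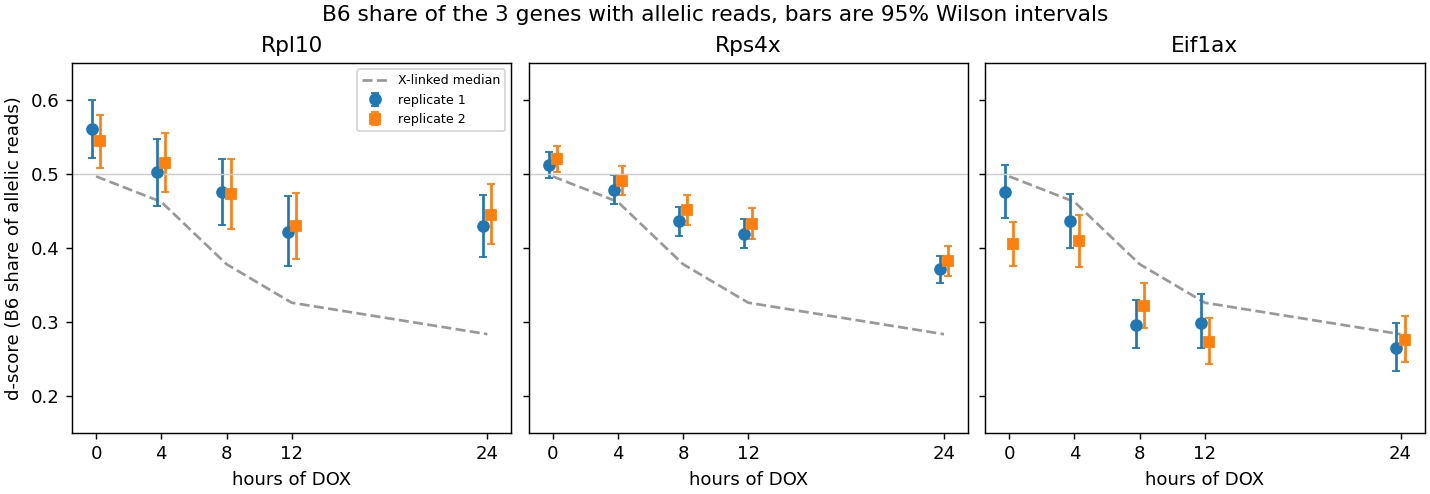
The d-score of Rpl10, Rps4x and Eif1ax (vertical axis, share of B6 among allelic counts, shown from 0.15 to 0.65) against hours of DOX, with 1 point per sample and 95% Wilson intervals as bars. The dashed line is the median of 337 X-linked genes, which went from 0.497 at 0 h to 0.283 at 24 h. Rpl10 and Rps4x stay above it at every time and Eif1ax drops between 4 h and 8 h.

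The B6 to Cast ratio of all 3 genes fell. At 24 h this ratio had changed on the log2 scale by −0.66 ± 0.130 (SE) for Rpl10, −0.82 ± 0.065 for Rps4x and −1.06 ± 0.122 for Eif1ax, with edgeR adjusted p of 6.92e-05, 5.74e-22 and 1.32e-12. The ratio fell by 36.7% for Rpl10, fell by 43.3% for Rps4x and fell by 52.0% for Eif1ax, and each replicate number alone showed the same direction. The 95% intervals were −0.91 to −0.41, −0.95 to −0.69 and −1.30 to −0.82. Each of these intervals overlaps the other two, and no difference between genes was tested.

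At 4 h edgeR called 0 of the 3 genes (1, Rps4x, at an unadjusted p under 0.05, and 0 in DESeq2), beside 11% of the 362 X-linked genes tested. At 8 h it called Rps4x (log2 change −0.41 ± 0.065, adjusted p = 4.17e-07) and Eif1ax (−0.78 ± 0.118, adjusted p = 1.53e-07), 2 of 3 genes beside 51.9% of X-linked genes. Rpl10 stood at −0.44 ± 0.136 at 8 h with an adjusted p of 0.0856, which became 0.0475 when genes needed at least 50 allelic reads in every sample. At 12 h and 24 h all 3 were called, beside 65.2% and 75.1%. The X-linked changes at 24 h had a median of −1.26 and quartiles of −1.87 and −0.87. Rpl10 and Rps4x lay beyond the quartile on the weaker side, and Eif1ax lay between that quartile and the median. A larger fall than that of Rpl10 was found in 85.6% of the X-linked genes, than that of Rps4x in 77.9% and than that of Eif1ax in 63.0%.

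**Figure D4:**
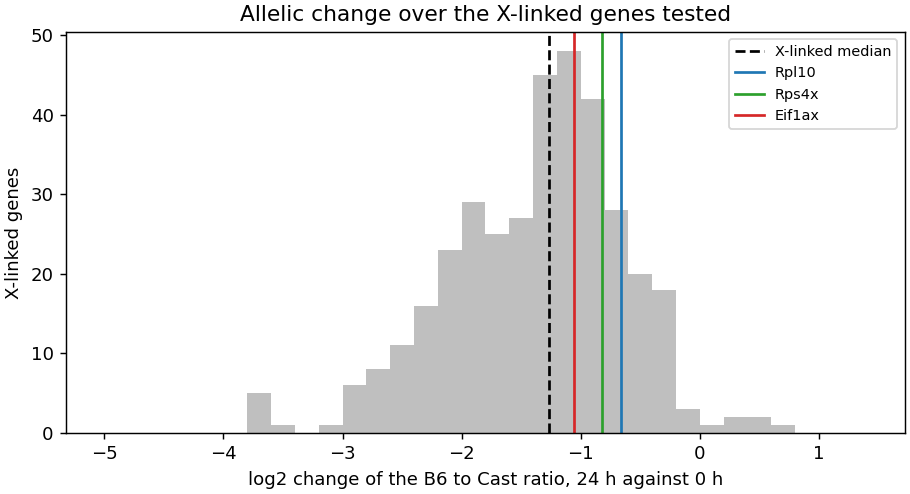
Histogram of log2 changes in the B6 to Cast ratio between 0 h and 24 h (horizontal axis) over 362 X-linked genes (vertical axis, number of genes), with lines at Rpl10, Rps4x, Eif1ax and the X-linked median. The changes run from −3.76 to 0.70 with the median at −1.26, and the 3 genes lie to its right at −0.66, −0.82 and −1.06.

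Successive times were compared next, gene by gene. From 4 h to 8 h the ratio of Eif1ax fell by 0.70 on the log2 scale (edgeR adjusted p = 1.87e-05), and that of Rps4x changed by −0.23 (adjusted p = 0.0566) and that of Rpl10 by −0.20 (adjusted p = 0.978), so that 1 of 3 genes was called beside 36.7% of X-linked genes. The step of Rps4x was called under other settings, with an edgeR adjusted p of 0.042 for genes with 50 or more allelic reads in every sample, 0.0429 for genes with 20 or more over all samples and 0.0258 with the replicate block, which makes 2 of 3. From 8 h to 12 h edgeR called none of the 3, also at an unadjusted p under 0.05 (Rpl10 −0.29, Rps4x −0.10 and Eif1ax −0.17), beside 13.8%. From 12 h to 24 h only Rps4x was called, with −0.30 ± 0.069 and an adjusted p of 0.0119, beside 6.91%. Rpl10 stood at 0.07 ± 0.142 and Eif1ax at −0.11 ± 0.134 for the same step. The late step of Rps4x kept its direction when any 1 sample was left out, but its edgeR adjusted p rose to 0.0852 without 12 h replicate 1, 0.23 without 12 h replicate 2 and 0.396 without 24 h replicate 1. Differences in timing between the genes were not tested.

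The time at which a gene reached a fixed degree of silencing was read from a log-logistic curve through the d-score normalised to 0.5 at 0 h. IC35 is the hour at which that curve passes 0.35. Eif1ax reached it at 8.27 h in the pooled curve, and the curves of each replicate alone gave 6.38 h and 8.36 h. The samples place the passage only between 4 h and 8 h in replicate 1 and between 8 h and 12 h in replicate 2. Within these spans the hour comes from the shape of the curve. Rpl10 and Rps4x did not reach it within 24 h, in the pooled curve or in either replicate, and were among 82 of 330 X-linked genes that did not. The median IC35 of the X-linked genes was 9.73 h, which lies inside the replicate 2 span of Eif1ax. The normalised d-score at 24 h was 0.395 ± 0.0187 (SD, n = 2) for Rpl10, 0.365 ± 0.00377 for Rps4x and 0.308 ± 0.0443 for Eif1ax, against an X-linked median of 0.296 and quartiles of 0.217 and 0.352.

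Counts of each allele alone were then compared with 0 h to see which allele moved. B6 counts of Rpl10, in CPM of the B6 library, were 62.5 and 66.4 at 0 h, 47.1 and 59.5 at 4 h, 39.9 and 38.2 at 8 h, 31.5 and 34.6 at 12 h and then 43.5 and 42.7 at 24 h. Its Cast counts, in CPM of the Cast library, were 52.4 and 59.8 at 0 h, 50.01 and 60.3 at 4 h, 47.3 and 45.6 at 8 h, 46.1 and 49.5 at 12 h and then 62.2 and 57.0 at 24 h. Both alleles of Rpl10 were lowest at 8 h and 12 h and stood higher at 24 h, while the 24 h B6 values remained below both 0 h values. The total counts of Rpl10 showed no such rise, with means of 151.6 CPM at 12 h and 147.4 CPM at 24 h. Allelic counts were only 15.6% of that total and did not follow it between samples. The higher allelic values at 24 h therefore do not show a recovery of the gene, and the counts of either allele alone may not follow it.

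B6 counts of Rps4x were 291.7 and 254.4 CPM at 0 h, 239.9 and 224.7 at 4 h, 183.9 and 200.1 at 8 h, 182.9 and 157.2 at 12 h and then 185.2 and 136.0 at 24 h. Its Cast counts were 298.2 and 252.8 CPM at 0 h, 279.7 and 250.9 at 4 h, 255.5 and 260.4 at 8 h, 270.8 and 220.9 at 12 h and then 337.2 and 235.6 at 24 h. No B6 value with DOX reached the lower 0 h value, and the Cast values of 24 h lay on either side of those of 0 h.

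B6 counts of Eif1ax were 67.1 and 70.7 CPM at 0 h, 60.1 and 59.3 at 4 h, 36.6 and 52.7 at 8 h, 32.8 and 37.7 at 12 h and then 34.2 and 35.6 at 24 h. Its Cast counts were 79.2 and 111.7 CPM at 0 h, 83.2 and 92.3 at 4 h, 93.4 and 119.4 at 8 h, 82.1 and 107.6 at 12 h and then 102.3 and 100.2 at 24 h. The B6 replicates of Eif1ax at 0 h lay close together, and it was the Cast counts that set its 0 h d-scores apart.

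**Figure D5:**
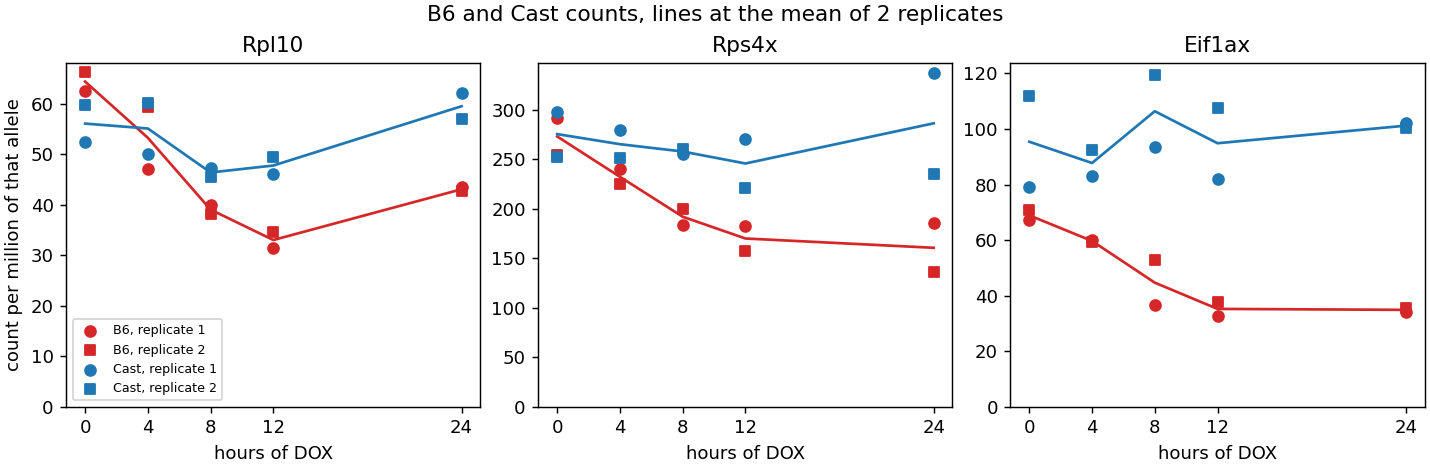
B6 (red) and Cast (blue) counts of Rpl10, Rps4x and Eif1ax in CPM of the library of that allele (vertical axis, from 0, with its own scale for each gene) against hours of DOX, with 1 point per sample and lines through the mean of the 2 replicates. B6 means at 24 h were 43.1, 160.6 and 34.9 CPM against 64.4, 273.1 and 68.9 CPM at 0 h, and the Cast means at 24 h were 59.6, 286.4 and 101.2 CPM.

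In the B6 counts edgeR called 0 of the 3 genes at 4 h (2, Rpl10 and Rps4x, at an unadjusted p under 0.05), beside 0.552% of 362 X-linked genes, and all 3 at 8, 12 and 24 h, beside 46.4%, 68.2% and 77.1%. The log2 change at 24 h was −0.58 ± 0.122 (SE) for Rpl10 (edgeR adjusted p = 0.00435), −0.77 ± 0.113 for Rps4x (adjusted p = 5.5e-05) and −0.98 ± 0.138 for Eif1ax (adjusted p = 2.81e-05). For Rpl10 it had been −0.96 ± 0.126 at 12 h. The calls at 8 h leaned on single samples, since only 1 of the 3 (Rpl10) remained without 8 h replicate 1. The 24 h call of Rpl10 was lost without 0 h replicate 2 (adjusted p = 0.051) and without 24 h replicate 2 (adjusted p = 0.0703).

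In the Cast counts edgeR called none of the 3 genes at any time, and 1 value had an unadjusted p under 0.05, that of Rpl10 at 8 h (log2 change −0.27 ± 0.124, adjusted p = 1). Among the X-linked genes 0%, 0%, 0% and 0.276% were called lower in Cast counts at 4, 8, 12 and 24 h, where 5, 2, 15 and 19 had a lower value at an unadjusted p under 0.05. In the other direction 0, 0, 1 and 2 X-linked genes were called higher, and 7, 16, 25 and 24 had a higher value at an unadjusted p under 0.05. At 24 h the Cast log2 change was 0.08 ± 0.120 for Rpl10, 0.05 ± 0.124 for Rps4x and 0.08 ± 0.142 for Eif1ax. Their 95% intervals reach up to 0.32, 0.30 and 0.36, so these samples could not tell a rise of up to that size from no change.

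The nearest X-linked gene on each side that was tested for its B6 share is set beside each member. Emd, 12.9 kb from Rpl10, changed its B6 to Cast ratio by −1.41 ± 0.308 (log2, SE) at 24 h and had a d-score of 0.295 ± 0.054 (SD, n = 2), beside 0.437 ± 0.0113 for Rpl10. Dnase1l1, 0.081 kb from the other end of Rpl10 and on the opposite strand, stood at −2.08 ± 0.757 on as few as 16 allelic reads (edgeR adjusted p = 0.203). Around Rps4x, Ercc6l at 27.8 kb stood at −0.84 ± 0.144 and Hdac8 at 95.2 kb at −1.31 ± 0.118. Around Eif1ax, Rps6ka3 at 3.95 kb and Map7d2 at 28.9 kb both stood at −1.04, with SEs of 0.085 and 0.139, next to −1.06 for Eif1ax itself.

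For the genes without allelic counts the neighbours give only the state of the region. Upf3b, 6.46 kb from Rpl39, stood at −0.66 ± 0.221 with an edgeR adjusted p of 0.115, and Slc25a5, 284 kb to the other side, stood at −0.99 ± 0.702 on as few as 13 allelic reads per sample. Armcx4, 98.5 kb from Rpl36a, fell by 1.76 ± 0.448 on the log2 scale (adjusted p = 0.00652), while Drp2, 129 kb to the other side, stood at 0.52 ± 0.611 on as few as 20 allelic reads. Differences between a member and its neighbours were not tested.

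Among 266 X-linked genes with enough allelic reads, those whose d-scores followed the members most closely over the 10 samples were found by the root mean square difference. For Rpl10 they were Brcc3 (0.0214), Tmem29 (0.0237) and Idh3g (0.025). For Rps4x they were Renbp (0.0187), Otud5 (0.0192) and Bcap31 (0.0205). For Eif1ax they were Huwe1 (0.0226), Fam120c (0.0264) and Nono (0.0267). Between 0 h and 24 h the d-score of Huwe1 went from 0.456 ± 0.020 to 0.274 ± 0.011 (SD, n = 2) and that of Bcap31 from 0.516 ± 0.00079 to 0.384 ± 0.028. The B6 to Cast ratio at 24 h changed by −0.68 ± 0.099 (log2, SE) for Brcc3 and −0.68 ± 0.143 for Tmem29. For Idh3g it changed by −0.26 ± 0.111 and was not called (edgeR adjusted p = 0.432), so a close d-score did not always come with a called fall.

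Other X-linked genes with a role in translation or ribosome assembly covered a wider range. In total counts 10 of the 11 in the list were tested and 3 were called lower by edgeR at 24 h without the block, namely Gnl3l and Las1l, which act in ribosome assembly, and Mcts1, which acts in translation reinitiation. With the replicate block and in DESeq2 there were 5 each. Among all X-linked genes tested, edgeR called 38% lower in total counts at 24 h without the block and 61.4% with it. DESeq2 called 201 X-linked genes. In the B6 share 6 of 9 were called lower by edgeR at 24 h, beside 75.1% of X-linked genes, and 4 by DESeq2, beside 210 of 362. Gnl3l fell by 1.87 ± 0.10 (log2, SE) and Las1l by 1.19 ± 0.178, more than any member, and Fmr1, which encodes an RNA-binding repressor of translation, fell by 0.83 ± 0.088. Utp14a, which processes ribosomal RNA, fell by 0.51 ± 0.078, Eif2s3x, a subunit of the initiation factor eIF2, by 0.37 ± 0.078, and Dkc1, the pseudouridine synthase of ribosomal RNA, by 0.31 ± 0.087, each less than any member, although these differences were not tested. The median of the 9 was −0.51, and Gspt2, Trmt2b and Lage3 had too few allelic reads (15 to 56 per sample) for precise values.

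The autosomal relatives of the 5 genes showed no called change. Rpl10l, Rps4l, Rpl36al, Rpl39l and Eif1a had log2 changes in total counts of −0.18 to 0.07 at 24 h, and edgeR called 0 of the 5 at each time, with 0 at an unadjusted p under 0.05 and 0 in DESeq2 and limma-voom. Eif1a, the autosomal gene for the same initiation factor, stood at 327 CPM at 0 h and 343 CPM at 24 h, and its d-score was 0.503 ± 0.0098 (SD, n = 2) and 0.506 ± 0.0032. These genes and processed copies elsewhere are similar in sequence to the members, and reads that could not be placed uniquely were not counted. Of 27 other initiation factor genes 26 were tested, and edgeR, DESeq2 and limma-voom called 0 in total counts at each time, with 2, 1, 3 and 0 at an unadjusted p under 0.05 at 4, 8, 12 and 24 h. Their median log2 change at 24 h was −0.02. Of the 6 stem cell marker genes edgeR, DESeq2 and limma-voom called 0 in total counts at each time, with 1 at an unadjusted p under 0.05, at 12 h. Of 4 markers of the primed state 1 was called at 24 h, Otx2, which fell by 0.84 ± 0.171 on the log2 scale (edgeR adjusted p = 0.0159) from 5.98 to 3.34 CPM, and its part in the results was not tested.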

How the data were processed

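The members and the gene lists were chosen with earlier results of these data known. Per the study's methods, reads were trimmed with Cutadapt, aligned to an mm10 genome masked at strain differences with STAR, filtered to unique alignments and split by allele, and counted by strand over whole gene spans with featureCounts 1.5.1. The submitters' processing notes also list TopHat2 2.1.0 and bedtools. The authors deposited, for each gene and sample, raw counts of all, B6 and Cast read pairs, and a fraction, the B6 counts over all allelic counts. All 127126 fraction values matched the counts within 1e-05 and were given from 10 allelic reads on.

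Here edgeR 4.0.16 (R 4.3.3) quasi-likelihood models were fitted to all 10 samples and all genes passing filterByExpr (total counts) or holding at least 10 allelic reads in every sample (allelic counts), with TMM scaling. The B6 to Cast ratio was modelled on 20 columns with a term per sample. Tests were two-sided with Benjamini-Hochberg adjustment over all genes tested, 14525 for total counts and 11906 for allelic counts, and called at 0.05. Xist was left out of X-linked counts. Percentages of X-linked genes called are those called lower. Same-numbered samples deviated together in total counts (r of 0.142 to 0.281 over 10 pairs of times, across genes) but not in B6 share (0 to 0.032). IC35 curves were fitted with scipy 1.17.1 and kept under a residual of 0.2. DESeq2 1.42.0, limma-voom 3.58.1 and other settings were alternatives. The fits were also run on simulated counts, with no shared deviation of replicates and with larger changes in total counts than those of the members. That run therefore does not bear on the members' changes in total counts. Named genes are the 5 members, the nearest X-linked gene on each side with enough allelic reads, the 3 most alike by d-score, and members of the lists. Annotation came from GENCODE. No protein sequences were used here.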

Additional observations from a re-analysis of the deposited data

How the results depend on the processing

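No called change of a member turned direction under any setting run. In total counts edgeR called none of the 5 members, and the replicate block gave 1 at 8 h, 4 at 12 h and 5 at 24 h. Omitting the filter on low counts gave 3 at 12 h and 3 at 24 h, and DESeq2 gave 1 at each of these times. Relative log expression scaling in edgeR in place of TMM, autosomal scaling and limma-voom gave none. No X-linked share was computed for the fits without that filter, with other scaling or with samples left out. With 1 sample left out in turn the count ran from 0 to 3 at 12 h and from 0 to 2 at 24 h. A sample left alone at its time was assumed to vary like the others. In B6 counts at 8 h, leaving out samples gave 1 to 3 of 3. The replicate block changed none of the calls against 0 h in the B6 share, B6 counts or Cast counts, and moved the 4 h to 8 h step of Rps4x to an adjusted p of 0.0258 in edgeR. With a threshold of 0.40 in place of 0.35, Rpl10 passed it at 12.03 h, Rps4x at 13.79 h and Eif1ax at 6.37 h, and with 0.30 Eif1ax did not pass it within 24 h. The curves of each replicate alone put the IC35 of Eif1ax at 6.38 h and 8.36 h, but the replicate 2 samples place it only between 8 h and 12 h. With no replicate block in the baseline the pooled IC35 of Eif1ax was 8.11 h. For single genes, 744 values stayed on their side of the threshold, 25 passed it and 7 no longer did. The causes were not tested. Allelic depth limits Rpl10 most, and Rpl36a and Rpl39 have none.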
